A study of Mus musculus with 8 samples.

Results

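The transcripts described here are those of 7 cell surface genes used to isolate blood stem cells from mice, out of 32285 genes counted. Procr encodes EPCR (CD201), the endothelial protein C receptor, and Ly6a encodes Sca-1; both proteins were in the antibody gate of this study. Slamf1 (CD150), Cd48 and Cd244a (CD244, also called 2B4) encode the SLAM receptors commonly used to refine such a gate. Cd34 (a sialomucin) and Cd27 (a receptor of the tumour necrosis factor receptor family) encode further markers of stem and progenitor cells. The genes were taken by name from the raw count matrices of 6 single-cell libraries, in cells with at least 1000 detected genes, at least 2000 unique molecular identifiers (UMIs, 1 per captured transcript) and at most 10% mitochondrial UMIs. All 7 were counted in every library.

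Haematopoietic stem cells (HSCs) self-renew and give rise to all blood lineages, and around birth they move from the liver and spleen to the bone marrow. They carry Sca-1, Kit and EPCR and lack the antigens of mature lineages. SLAM receptors bind other SLAM proteins on neighbouring blood cells: CD150 binds itself and CD48 is the ligand of CD244. In adult marrow, stem cells are classically CD150-positive and negative for CD48 and CD244, whereas many dividing progenitors carry CD48. CD34 is low on adult mouse stem cells and present on progenitors and on fetal stem cells.

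Cells were sorted as EPCR-positive, lineage-negative, Sca-1-positive and Kit-positive after enrichment for Kit. Wild-type mice of postnatal day 2 (P2) gave 1 bone marrow, 1 liver and 1 spleen library, each pooling 7 mice (batch 1 in the labels). Wild-type embryos of about day 19 of gestation (E19) gave 1 library (batch 2), labelled bone marrow in its title and fetal liver in its tissue field, and therefore called only E19 here. In 2 Tppp3CreER LSLTdTomato pups given tamoxifen at P0, bone marrow and spleen cells carried a hashtag for pup and tissue and were sorted by tdTomato, which marks cells in which the Tppp3-driven recombinase had been active, and their descendants (batch 3). Tube 1 held 145 tdTomato-positive cells of pup 1 with 5500 negative cells of pup 2, and tube 2 held 180 positive cells of pup 2 with 5156 negative cells of pup 1. Genotype, tamoxifen and batch cannot be told apart between the wild-type libraries and the tubes. Age and batch cannot be told apart between E19 and the P2 pool, and the tissue of E19 is uncertain from its labels.

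After removal of likely doublets 34209 cells remained, 2409 to 9699 per library, with median depths of 6373 to 7891 UMIs in the 4 wild-type libraries and of 19964 and 20355 in the tubes. Because a deeper cell shows more of its transcripts, each cell was thinned at random to 5000 UMIs before shares of cells were compared, which left out 69 to 2702 shallower cells per library. Intervals in square brackets are exact 95% intervals and cover counting error only. Clustering without the 7 genes gave 40 clusters, of which 11 were named HSC-like from Mecom, Hlf, Mllt3, Fgd5 and other stem cell genes. The share of HSC-like cells was 46.0% in P2 bone marrow, 6.49% in liver, 31.5% in spleen, 88.4% in E19, 97.8% in tube 1 and 69.7% in tube 2. Defining markers of the gated cell type were thus present in every library, but most cells of the liver library belonged to other classes. Different clusters held the HSC-like cells: clusters 1 and 4 in the P2 pool (with cluster 34 in liver), clusters 0, 2, 3, 5 and 26 in E19 and tube 1, and clusters 9 and 19 in tube 2. Between 7 and 20 cell barcodes were shared by each pair of wild-type libraries, 3 by the tubes, and 0 by a wild-type library and a tube.

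The SLAM genes lie together on mouse chromosome 1 (build mm10, GENCODE vM21 annotation). Cd244a spans chr1:171559193-171609746, Cd48 spans chr1:171682009-171705258 and Slamf1 spans chr1:171767127-171801184, all on the plus strand, so that the 3 genes fall within 242 kb. Cd34 is at chr1:194938819-194961279 on the plus strand, Procr at chr2:155751117-155755471 on the plus strand, Cd27 at chr6:125232622-125237010 on the minus strand and Ly6a at chr15:74994877-74998031 on the minus strand; all are protein-coding. The sequences upstream of Cd48, Slamf1 and Procr are shown because these transcripts differed most between phase-called cells, Cd48 in one direction and the other pair in the opposite one. They are from RefSeq (build GRCm38.p6, plus strand, 5′ to 3′) and end before the annotated start of the gene. Capitals mark matches on either strand to the cell-cycle homology region motif TTTGAA and the RUNX core TGTGGT; the GATA motif AGATAA and the ETS core CCGGAA were searched too.
Cd48 (chr1:171681742-171681991): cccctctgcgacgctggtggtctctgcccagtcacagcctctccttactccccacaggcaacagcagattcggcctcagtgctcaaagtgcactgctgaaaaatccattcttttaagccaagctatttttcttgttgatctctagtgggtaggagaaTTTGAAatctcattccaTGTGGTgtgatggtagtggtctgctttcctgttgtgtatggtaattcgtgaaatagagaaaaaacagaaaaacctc
Slamf1 (chr1:171766882-171767126): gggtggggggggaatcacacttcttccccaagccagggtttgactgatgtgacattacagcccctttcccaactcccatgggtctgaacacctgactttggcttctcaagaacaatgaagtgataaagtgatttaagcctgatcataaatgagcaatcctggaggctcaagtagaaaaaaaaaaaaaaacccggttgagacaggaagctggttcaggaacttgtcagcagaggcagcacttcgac
Procr (chr2:155750967-155751116): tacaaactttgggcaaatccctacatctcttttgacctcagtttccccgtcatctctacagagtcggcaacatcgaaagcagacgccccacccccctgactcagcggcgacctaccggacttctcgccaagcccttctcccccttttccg
The Cd48 window of 250 bases held 1 match to TTTGAA and 1 to TGTGGT, which do not overlap. Among all 32851 promoter entries, 16.0% held TTTGAA and 14.0% held TGTGGT in a window of that length. None of the 4 motifs was found in the Slamf1 or Procr window, where windows of the same lengths (245 and 150 bases) hold TTTGAA in 15.7% and 10.8% of entries. Of the 7 genes, 6 had an entry in the promoter table.

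The gate genes were read first in the cells as sorted. At 5000 UMIs, Procr was detected in 3.37% of P2 bone marrow cells, 1.04% of liver cells, 3.72% of spleen cells, 14.8% of E19 cells, 15.8% of tube 1 cells and 15.2% of tube 2 cells. The 3 libraries of the P2 pool lay below the other 3 with intervals that did not overlap. Ly6a was detected in 9.43%, 6.04%, 8.71%, 9.18%, 34.6% and 15.3% of cells in the same order, so tube 1 stood above all others. Kit, the third positively selected gene, was detected in 28.4% (liver) to 63.2% (tube 1) of cells. Without thinning, the Procr shares were 5.59%, 1.43%, 4.77%, 20.9%, 42.3% and 38.7%; the wider gap between the tubes and E19 in these values goes with the depth of the tubes.

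Within HSC-like cells the gate genes were still detected in a minority of cells. Procr was found in 7.13% [6.06, 8.33] of HSC-like cells in P2 bone marrow, 7.59% [4.93, 11.1] in liver, 9.54% [8.28, 10.9] in spleen, 17.0% [16.1, 18.0] in E19, 16.0% [14.6, 17.5] in tube 1 and 20.4% [18.5, 22.5] in tube 2. The 3 pooled P2 tissues overlapped one another and lay below the other 3 libraries. With finer clustering (resolution 2) the P2 bone marrow value was 10.8%. Ly6a was found in 18.8%, 20.3%, 17.1%, 10.6%, 35.0% and 19.99% of HSC-like cells in the same order, lowest in E19 and highest in tube 1. The share of HSC-like cells with a UMI of all 3 genes Kit, Ly6a and Procr ran from 0.949% in liver to 3.85% in tube 1, and the share with none of them from 18.8% in tube 2 to 37.6% in P2 bone marrow. A missing UMI at this depth does not show a missing transcript or protein.

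Among the SLAM genes, Slamf1 was rare and Cd48 common in HSC-like cells. Slamf1 was detected in 2.36% [1.75, 3.11] of HSC-like cells of P2 bone marrow, 3.16% [1.53, 5.74] of liver, 3.58% [2.81, 4.50] of spleen, 3.89% [3.42, 4.40] of E19, 4.64% [3.86, 5.53] of tube 1 and 4.54% [3.58, 5.66] of tube 2. Neighbouring values in that order overlapped, and P2 bone marrow lay below E19 and both tubes. Cd48 was detected in 49.5% [47.4, 51.7], 44.9% [39.4, 50.6], 46.9% [44.7, 49.1], 29.2% [28.1, 30.4], 31.1% [29.3, 32.9] and 28.3% [26.1, 30.5] of HSC-like cells in the same order. The pooled P2 tissues therefore formed a high group and E19 and the tubes a low one. Cd244a, the receptor for CD48, was split in the same way, with 10.6% [9.31, 12.0], 12.7% [9.20, 16.8] and 8.58% [7.38, 9.90] in the pooled tissues against 1.33% [1.06, 1.65] in E19, 2.95% [2.33, 3.68] in tube 1 and 2.76% [2.02, 3.67] in tube 2.

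Cd34 and Cd27 were broadly detected in HSC-like cells. Cd34 was found in 74.9%, 67.4% and 70.1% of HSC-like cells of P2 bone marrow, liver and spleen, in 59.8% of those of E19, and in 68.1% and 69.2% of those of tubes 1 and 2, so E19 was lowest. Cd27 was found in 24.5%, 32.0%, 24.9%, 32.6%, 39.6% and 42.4% in the same order, lowest in the pooled marrow and spleen and highest in the tubes.

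**Figure D1:**
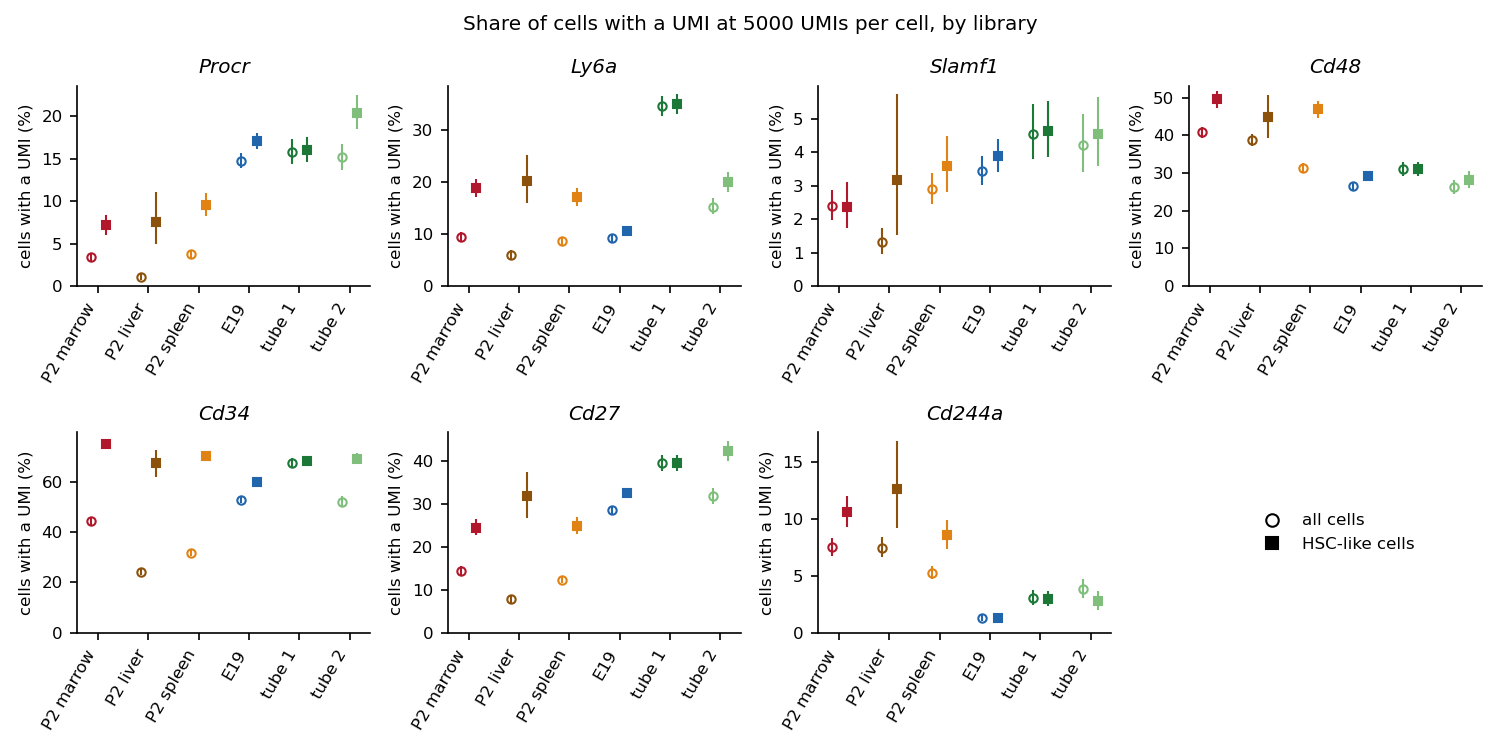
Percent of cells with at least 1 UMI of each gene (vertical axes) after thinning to 5000 UMIs, in the 6 libraries (horizontal axes), for all cells (open circles) and HSC-like cells (filled squares); bars are exact 95% binomial intervals. In HSC-like cells Cd48 sits between 44.9% and 49.5% in the pooled P2 tissues and between 28.3% and 31.1% in the other libraries, and Procr sits below 10% only in the pooled tissues.

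The E19 and P2 bone marrow libraries were compared within HSC-like cells, with 1 library each and so with no test. They differ in age and batch and, given the labels of E19, possibly in tissue, which cannot be told apart. As counts of the summed cells scaled to a common total (CPM), Procr stood at 43.4 in E19 and 16.8 in P2 bone marrow, Slamf1 at 9.24 and 6.07, Cd27 at 83.3 and 57.3, Cd48 at 85.6 and 158, Cd34 at 199.8 and 293, Ly6a at 24.4 and 47.1, and Cd244a at 2.83 and 22.5. The tubes, also of age P2, stood at 30.7 and 40.3 CPM for Procr, 108 and 92.6 CPM for Cd48 and 8.45 and 7.14 CPM for Cd244a, between E19 and P2 bone marrow, and at 9.38 and 9.79 CPM for Slamf1. For Cd27 the tubes (109 and 114 CPM) were above both. The summed level of the 8 HSC marker genes was 1048 CPM in the HSC-like cells of P2 bone marrow and 2933 CPM in E19. It was 2032 CPM in tube 1 and 2345 CPM in tube 2, with none of the 8 at 0. The 5 myeloid progenitor genes summed to 1093 CPM in P2 bone marrow, 253 CPM in E19, and 95.5 and 97.0 CPM in the tubes. Without the HSC-like cluster with Mpo at least as high as Mecom, P2 bone marrow went from 2776 to 1676 cells. The HSC-like cells of these libraries thus differed in make-up. The part of these lists in the values above was not tested.

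The cell classes caught in the gate carried the genes in distinct combinations. Thinning left out 564 of 672 T, NK and innate lymphoid-like cells, 3005 of 4488 B cell-like cells and 3813 of 18535 HSC-like cells. The share of a class thus describes its deeper cells. Most class shares were lower at 2500 UMIs, which kept more cells. Exceptions included Slamf1 in B cell-like cells, at 3.06% against 2.76% at 5000 UMIs, and Cd244a in neutrophil-like cells (7.45% against 4.76%). Among the others were Ly6a in T, NK and innate lymphoid-like cells (6.44% against 5.56%) and Cd27 in endothelial-like cells (4.55% against 2.56%). Procr in neutrophil-like cells was another (1.06% against 0.366%). Erythroid-like cells were taken as a low reference class. There Procr was found in 0.158%, Ly6a in 0.158%, Slamf1 in 0.499%, Cd34 in 0.840%, Cd27 in 0.683% and Cd244a in 0.0788% of 3809 cells at 5000 UMIs. Median depth before thinning was 15436 UMIs there, against 7587 in HSC-like cells. Cd48 was higher there, at 4.88%. Apart from Cd48, shares at or below these values are read as no higher than this reference.

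Procr was close to restricted to stem-like and vessel-like cells. It was found in 14.6% [14.1, 15.2] of 14722 HSC-like cells, 15.4% [5.86, 30.5] of 39 endothelial-like cells and 10.0% [2.11, 26.5] of 30 stromal-like cells. In myeloid progenitor-like and B cell-like cells the share was 0.258% and 0.135%, at the erythroid level within the intervals. Neutrophil-like cells had 0.366% [0.00927, 2.02], from 1 of 273 cells, and 1.06% at 2500 UMIs. Their level of 2.75 CPM [1.37, 4.92] was above the 0.332 CPM [0.208, 0.503] of erythroid-like cells. Dendritic cell-like and mast cell and basophil-like cells each had 1.54%. It was found in 0 of 551 megakaryocyte-like cells [0, 0.667] and in 0 of 108 T, NK and innate lymphoid-like cells [0, 3.36].

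Ly6a reached further. It was found in 18.1% of HSC-like, 30.8% of endothelial-like and 26.7% of stromal-like cells, in 11.3% of B cell-like and 8.19% of dendritic cell-like cells, and in 0.849% of myeloid progenitor-like cells. B cell-like cells differed between tissues: 27.3% of the spleen cells had a Ly6a UMI, 42 of 525 liver cells (8%) and 4.47% of the P2 bone marrow cells. Most spleen B cell-like cells were in clusters with immunoglobulin light chain and Ms4a1 transcripts, whereas most marrow ones were in a cluster with surrogate light chain transcripts (Igll1, Vpreb1), so the tissues did not hold the same B cell stage.

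Slamf1 was highest outside the stem cells. Megakaryocyte-like cells, which share Pf4, Itga2b and Treml1 and formed 1 cluster, had a Slamf1 UMI in 23.0% [19.6, 26.8] of cells, against 3.82% [3.51, 4.14] of HSC-like cells. The share was 26.1% in P2 bone marrow, 23.2% in liver and 19.9% in spleen, with Slamf1 levels of 66.6, 59.6 and 43.7 CPM. All 3 tissues were above the share of Slamf1 in the HSC-like cells of each whole library, the highest of which was 4.64%. The same megakaryocyte-like cells had Cd48 in 41.0% and lacked Ly6a UMIs in all 551 cells at 5000 UMIs. B cell-like cells of tube 2 had Slamf1 in 17.9% of 67 cells, those of spleen in 5.09% of 373 and those of P2 bone marrow in 0.235% of 425.

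Cd48 marked most blood classes. It was found in 58.8% of dendritic cell-like, 56.5% of T, NK and innate lymphoid-like, 44.0% of B cell-like, 42.3% of mast cell and basophil-like and 38.3% of myeloid progenitor-like cells. Neutrophil-like cells had 11.7%, endothelial-like cells 2.56% and stromal-like cells 0%. Cd244a was highest in T, NK and innate lymphoid-like cells at 35.2% [26.2, 45.0], with 67.6% of 37 such cells in liver and 18.9% of 53 in spleen. The liver cells of that class were mostly in a cluster with Gzma, Klrd1 and Il2rb and the spleen cells mostly in one with Cd3d, Themis and Cd8b1. Dendritic cell-like cells had Cd244a in 18.9% and HSC-like cells in 4.29%.

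Cd34 was found, over all libraries, in 66.0% of HSC-like, 35.9% of endothelial-like, 33.3% of stromal-like, 33.3% of myeloid progenitor-like, 28.5% of dendritic cell-like, 23.1% of mast cell and basophil-like, 16.3% of megakaryocyte-like, 0.944% of B cell-like and 0.840% of erythroid-like cells. The dendritic cell-like value was set by the liver, with 42.7% there against 7.61% in P2 bone marrow and 2.74% in spleen. Cd27 was found in 32.7% of HSC-like cells and 30.6% of T, NK and innate lymphoid-like cells, and in 8.79% or less of every other named class.

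**Figure D2:**
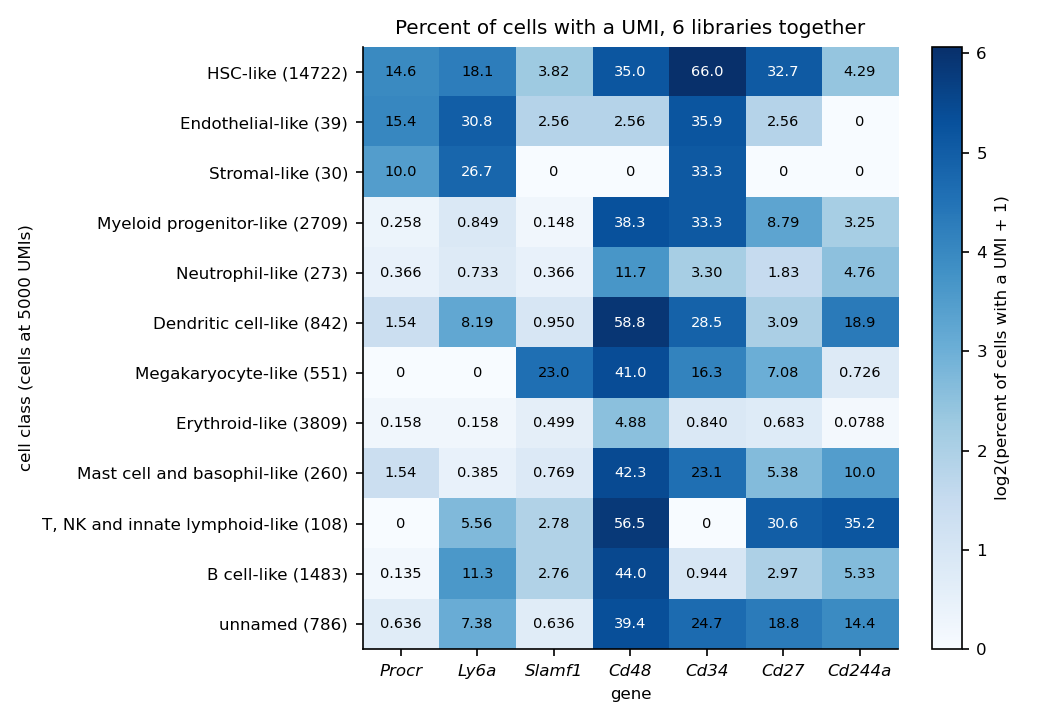
Percent of cells with at least 1 UMI of each gene (columns) in each class (rows, with the number of cells that reached 5000 UMIs), all libraries together, coloured on a log2 scale. Procr is near 0 outside HSC-like, endothelial-like and stromal-like cells, and Slamf1 is highest in megakaryocyte-like cells at 23.0%.

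HSC-like cells were not uniform for these genes. In E19, cluster 0, which had the most Mecom (2171 CPM) of the clusters with over 200 cells, had Procr in 25.1% of cells, Slamf1 in 8.55% and Cd48 in 13.1%. The other E19 clusters had Procr in 12.8% to 16.7%, Slamf1 in 0.907% to 4.22% and Cd48 in 32.5% to 44.6%. Tube 1 repeated the pattern: cluster 0 had Procr in 26.8%, Slamf1 in 11.5% and Cd48 in 9.81%, against 10.2% to 20.2%, 0.742% to 3.40% and 27.5% to 47.6% in its other clusters. Cd34 was lowest in cluster 0 as well, at 45.7% in E19 and 51.9% in tube 1, where the other clusters had 62.0% to 79.8%.

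In liver, cluster 34 (Mecom 1851 CPM) had Procr in 18.1% of 83 cells, Slamf1 in 8.43% and Cd48 in 22.9%, while clusters 1 and 4 had Procr in 1.12% and 6.20%, Slamf1 in 1.12% and 1.55%, and Cd48 in 64.0% and 48.8%. In tube 2, cluster 9 (Mecom 1130 CPM) had Procr in 25.4%, Slamf1 in 5.52% and Cd48 in 25.7% of cells, and cluster 19 (Mecom 790.4 CPM) had 11.3%, 2.87% and 33.8%. P2 bone marrow and spleen had few cells outside clusters 1 and 4, which differed little: Procr was in 7.84% and 6.53% of the marrow cells of these clusters and Cd48 in 51.2% and 48.5%, and in spleen the shares were 10.9% and 8.17% for Procr and 46.5% and 47.1% for Cd48. Cluster 33, with the highest Mecom of all (3735 CPM), did not follow for Procr: over its 113 cells Procr stood at 16.4 CPM, Slamf1 at 19.7 CPM and Cd48 at 87.0 CPM, against 66.4, 21.3 and 33.4 CPM in cluster 0. Its 27 tube 2 cells at 5000 UMIs had Procr in 7.41%, Slamf1 in 0 cells and Cd48 in 18.5%. Cluster 33 was shallow, with a median of 4826 UMIs. These clusters come from the same cells, so the contrasts between them are descriptions with no test.

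**Figure D3:**
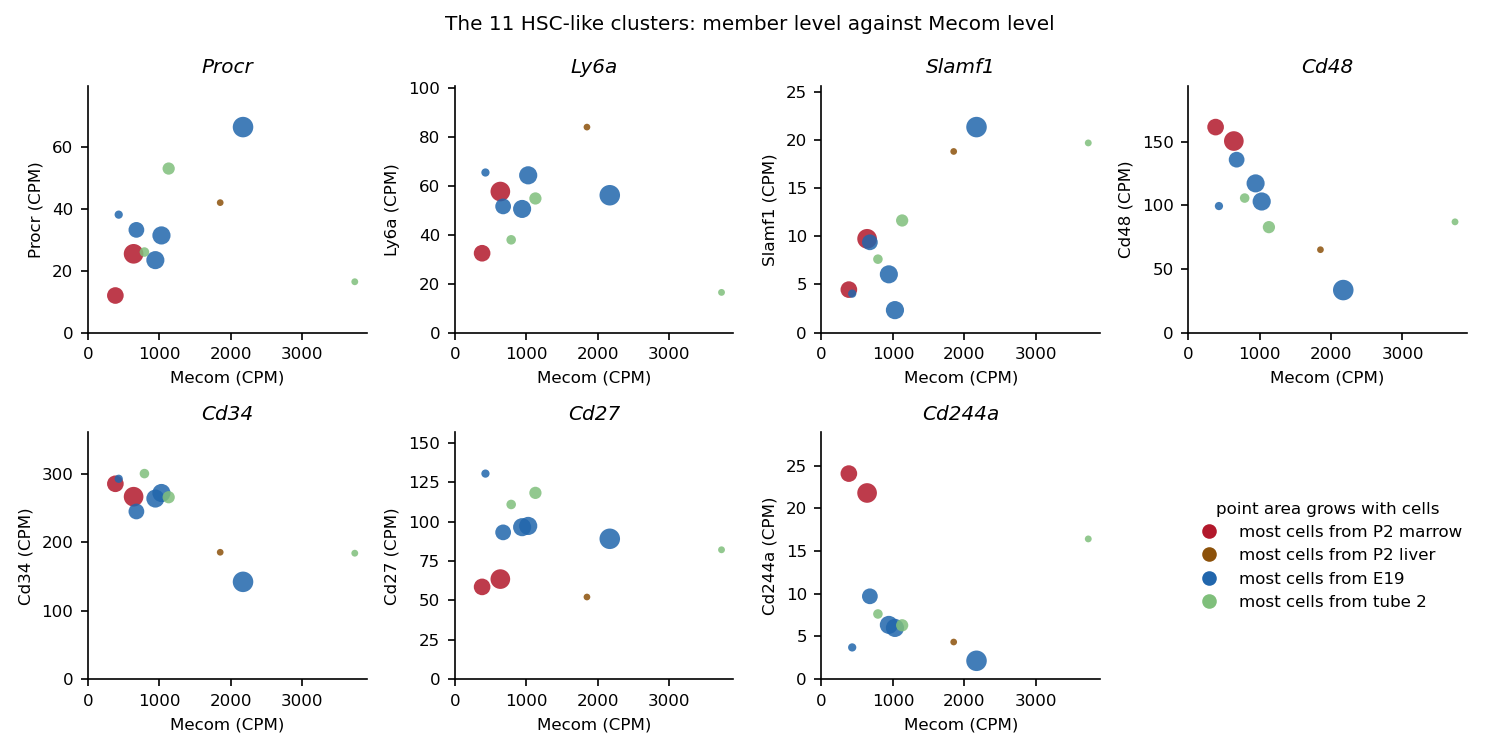
Level of each gene (vertical axes, CPM of summed UMIs) against that of the stem cell transcription factor gene Mecom (horizontal axes, CPM) in the 11 HSC-like clusters; colour gives the library with most cells and area grows with the number of cells. Cluster 0, at 2171 CPM of Mecom, has the highest Procr and Slamf1 and the lowest Cd48, and cluster 33, at 3735 CPM, lies off this trend for Procr.

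Detection of one gene in a cell was set against detection of another in HSC-like cells. A Cd48 UMI was present in 19.7% of E19 cells with a Procr UMI and in 31.2% of those without. The shares were 18.6% and 33.4% in tube 1, 19.8% and 30.4% in tube 2, 37.2% and 50.5% in P2 bone marrow, 39.7% and 47.6% in spleen, and 12.5% and 47.6% in liver. Cd48 was thus less often seen with Procr in 6 of 6 libraries, with intervals that overlapped in spleen only. Cd34 was also less often seen with Procr in 6 of 6 libraries, for example in 51.2% against 61.6% of E19 cells, with intervals that overlapped in P2 bone marrow, liver and tube 2. Cd34 was seen in 40.8% of E19 cells with a Slamf1 UMI against 60.6% of those without, in 59 of 118 cells against 69.0% in tube 1 and in 51.0% against 75.5% in P2 bone marrow. Tube 2 differed less, at 66.2% and 69.3%.

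The classical SLAM combination, a Slamf1 UMI with no Cd48 UMI, was found in 33 of 2075 HSC-like cells of P2 bone marrow (1.59%), 7 of 316 of liver (2.22%), 41 of 1982 of spleen (2.07%), 184 of 6175 of E19 (2.98%), 90 of 2543 of tube 1 (3.54%) and 57 of 1631 of tube 2 (3.49%). Cells with both genes were fewer in every library, from 0.771% to 1.51%. Cells with neither formed the largest group, from 48.9% in P2 bone marrow to 68.2% in tube 2. At 2500 UMIs per cell the shares of Slamf1 without Cd48 ranged from 1.76% to 2.18% and the library order was not kept.

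Bone marrow and spleen were compared in HSC-like cells over 3 sources: the pool, and the tdTomato-negative cells of each of the 2 pups. UMIs were summed per source and tissue and tested with edgeR's quasi-likelihood test over 14176 genes, with batch as the only other term. Marrow and spleen of a source were thus not paired in this fit. Their deviations from the tissue means correlated at 0.77, 0.55 and 0.55. These values include the difference between pool and pups, which the batch term covers. None of the 7 genes was called at an adjusted p under 0.05; 0% of all genes were called (334 genes had an unadjusted p under 0.05, and DESeq2 called 4 genes). With the source as a replicate block 2 genes were called, neither of them among the 7. Procr stood at 16.8 CPM in marrow and 20.6 in spleen in the pool, at 49.5 and 35.9 in pup 1, and at 31.8 and 28.5 in pup 2. The pool thus went one way and both pups the other, with a fitted log2 difference of 0.01 ± 0.18 (SE; edgeR adjusted p = 1.000). Slamf1 stood at 6.07 and 8.20 CPM in the pool, 8.61 and 8.44 in pup 1, and 11.5 and 7.11 in pup 2. Cd48 stood at 158 and 153 CPM, 74.4 and 96.4, and 105 and 105. For Cd34, Cd27 and Ly6a the fitted differences were -0.03, -0.01 and 0.04. Cd244a was higher in marrow in 3 of 3 sources, with means of 13.5 ± 7.81 and 11.8 ± 8.87 CPM (SD, n = 3; edgeR adjusted p = 1.000).

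Ly6a stood at different levels in the 2 pups. In pup 1 its level was 42.2 CPM [34.2, 51.4] in marrow and 46.4 [43.7, 49.3] in spleen among tdTomato-negative HSC-like cells, and 60.7 [39.3, 89.5] in the tdTomato-positive cells. In pup 2 it was 91.3 [87.7, 94.97], 90.7 [86.2, 95.4] and 109 [86.7, 134]. Pup 1's negative cells were loaded in tube 2 and its positive cells in tube 1, and the reverse held for pup 2, so each tube held cells of both pups. The positive cells of pup 1 gave 25 UMIs in 29 cells, and their interval overlaps those of pup 2. The 9 neutrophil genes summed to 73.9 CPM and 95.8 CPM in the HSC-like sums of tube 2 and to 7.28 and 6.64 CPM in those of tube 1. Ly6e, a gene of the same family as Ly6a, stood at 197 and 227 CPM in the negative cells of pups 1 and 2. With 1 animal on each side there is no test of the pups.

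The tdTomato-positive cells were compared with the negative cells of the same pups, both tissues together, in 29 and 40 positive and 954 and 2028 negative HSC-like cells. Of 13586 genes tested with edgeR, 0.39% were called, 0.081% higher and 0.309% lower in positive cells (11 and 42 genes, against 76 and 128 with DESeq2), and none of the 7. Cd48 came nearest. It stood at 60.7 and 54.9 CPM in the positive cells of pups 1 and 2 and at 94.4 and 105 CPM in the negative cells, so the groups did not overlap. The log2 difference was -0.88 ± 0.15 (SE; edgeR adjusted p = 0.0599), lower in 2 of 2 pups. With the pup as a replicate block 377 genes were called in place of 53, among them Cd48 (-0.90, edgeR adjusted p = 0.000106), and DESeq2 called it too (-0.87, adjusted p = 0.0134). Subtracting the hashtag background assigned more cells, with 57 and 80 positive HSC-like cells of pups 1 and 2 in place of 29 and 40. With that rule Cd48 was not called (-0.70, edgeR adjusted p = 0.803), and 0 genes were. It was called without the negative cells of pup 1 (adjusted p = 0.00939), while the other omissions of 1 sum gave 0.068 to 0.238.

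Procr stood at 55.8 and 48.5 CPM in the positive cells against 37.2 and 30.6 in the negative cells, with no overlap of these sums. In pup 1 the intervals overlapped ([35.4, 83.7] against [34.8, 39.6]). The log2 difference was 0.53 ± 0.20, with an edgeR adjusted p of 0.359. Slamf1 stood at 9.70 and 15.3 against 8.45 and 9.83 CPM (0.46 ± 0.34, edgeR adjusted p = 0.666). Cd244a had 1 UMI in the positive cells of pup 1, or 2.43 CPM [0.0614, 13.5], and 0 in those of pup 2 [0, 4.71], against 7.20 [6.20, 8.32] and 8.24 [7.41, 9.13] CPM in the negative cells. Ly6a was not called (0.31 ± 0.42), and without the negative cells of pup 2 it was (0.93, edgeR adjusted p = 0.0057). Cd34 and Cd27 differed by -0.12 and 0.02. The 8 HSC marker genes summed to 3285 and 3039 CPM in the positive cells and 2220 and 2065 CPM in the negative cells, and the G2/M genes to 4816 and 6067 against 10632 and 9420 CPM; their part in the values of Cd48 and Procr was not tested. Positive cells were shallower, with medians of 13101 and 18096.5 UMIs against 26265 and 20603.5.

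**Figure D4:**
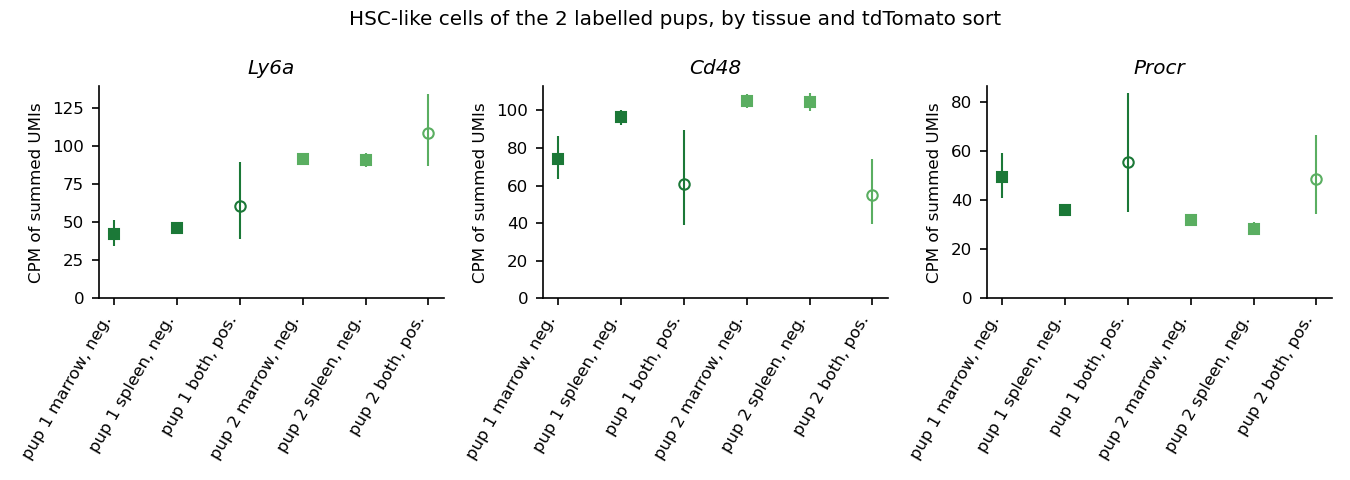
Level of Ly6a, Cd48 and Procr (vertical axes, CPM of summed UMIs) in HSC-like cells of the 2 pups, by tissue for tdTomato-negative cells (squares) and with both tissues together for tdTomato-positive cells (circles); bars are exact 95% Poisson intervals. Ly6a is at 42.2 to 60.7 CPM in pup 1 and 90.7 to 109 CPM in pup 2, and Cd48 is lower in the positive cells of each pup than in the negative cells of both its tissues. In pup 1 the Cd48 interval of the positive cells overlaps that of the negative marrow cells.

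Phase calls divided the markers most clearly. HSC-like cells were called S or G2/M, or other, from fixed lists of phase genes that hold none of the 7. A called class is a range of a score: 82.6% of the pool cells, 46.4% of E19, 71.2% of pup 1 and 65.7% of pup 2 were called S or G2/M, and 366, 501, 59 and 151 cells lay within 0.05 of the threshold. Sums of both arms in these 4 sources were tested with edgeR with the source as a term. The split itself moves a large part of the transcriptome: 49.7% of 14445 genes were called, 26.7% higher and 23% lower in S or G2/M. Of the 7 genes 6 were called, 3 higher and 3 lower, a share that has to be read against that background.

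Cd48 was higher in S or G2/M cells. Its level was 172 against 135 CPM in the pool, 110 against 75.2 in E19, 105 against 50.4 in pup 1 and 120 against 57.4 in pup 2, a log2 difference of 0.90 ± 0.10 (SE; edgeR adjusted p = 3.4e-05), higher in 4 of 4 sources. At 5000 UMIs per cell the shares were 50.04% and 39.6%, 35.3% and 23.9%, 33.0% and 16.8%, and 36.1% and 18.5%, so the order also held at equal depth. Cd34 rose less, by 0.45 ± 0.04 (edgeR adjusted p = 1.1e-05), from 253 to 292 CPM in the pool, 189 to 223 in E19, 226 to 294 in pup 1 and 230 to 283 in pup 2. Cd244a rose by 0.65 ± 0.13 (edgeR adjusted p = 0.0018), from 19.6 to 25.1 CPM in the pool, 2.93 to 3.18 in E19, 4.93 to 7.77 in pup 1 and 5.26 to 9.16 in pup 2; in E19 the share of cells at 5000 UMIs did not have that order (1.12% against 1.51%).

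Procr and Slamf1 were lower in S or G2/M cells. Procr stood at 13 against 24.0 CPM in the pool, 28.4 against 49.6 in E19, 29.8 against 67.0 in pup 1 and 24.0 against 51.9 in pup 2, a log2 difference of -0.83 ± 0.08 (SE; edgeR adjusted p = 8.2e-06). Slamf1 stood at 5.02 against 9.04, 5.82 against 11.4, 7.03 against 14.2 and 7.97 against 16.0 CPM (-0.80 ± 0.10, edgeR adjusted p = 7.6e-05). Ly6a stood at 37.1 against 68.6, 17.1 against 29.2, 42.0 against 62.3 and 84.8 against 112 CPM (-0.47 ± 0.08, edgeR adjusted p = 0.00061). All 3 were lower in 4 of 4 sources. Cd27 did not pass the test (0.02 ± 0.06, edgeR adjusted p = 0.847); its mean level was 87.7 ± 23.6 CPM in S or G2/M cells and 97.9 ± 27.4 CPM in other cells (SD, n = 4), and the sign of its fitted difference turns with RLE size factors (-0.01).

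The scale of these differences is relative. Over 11452 genes with at least 10 UMIs in every sum, the plain CPM ratio of S or G2/M to other cells had a median of -0.15 (log2), and the median fitted value was -0.01 with edgeR and -0.18 with DESeq2. The directions of the 6 called genes were the same in plain CPM in each source and with DESeq2. Without the source term Slamf1 alone was called (-0.80, edgeR adjusted p = 0.0275), and 987 genes in all. The 8 HSC marker genes summed to 798 to 2341 CPM in S or G2/M cells and 1618 to 3478 CPM in other cells, higher in other cells of 4 of 4 sources, with none of the 8 at 0. The 5 myeloid progenitor genes summed to 99.7 to 1006 and 61.9 to 427 CPM, higher in S or G2/M cells of 4 of 4 sources. Median depth was 8554 to 29264 UMIs in S or G2/M cells and 6016 to 17938 in other cells. Their part in the result was not tested. Without cluster 4, the HSC-like cluster with Mpo at least as high as Mecom, the same 6 genes were called in the same directions. That omission took S or G2/M cells of the pool from 3353 to 1355, but those of E19 only from 2866 to 2857. Pup 1 went from 679 to 678 and pup 2 stayed at 1323, so it cannot test the part of the myeloid genes in these sources.

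Other surface genes were described from lists chosen with the 7. Of 10 SLAM family and adaptor genes 4 could be tested, and Cd84 was lower in S or G2/M cells (-0.37, edgeR adjusted p = 0.00065) with none higher. Of 17 partners and relatives of the gate genes 13 were tested, 5 were higher and 1 was lower; over all genes 49.7% were called, and the 6 called here and the 10 of the next list lie near that share. Siva1, which encodes an intracellular partner of CD27, rose by 0.90, Thbd (thrombomodulin, which acts with EPCR on protein C) by 0.61, Traf2 by 0.47 and Ly6e by 0.30 (edgeR adjusted p of 1.4e-07 to 0.044), and Emcn (endomucin) was at -0.25 (edgeR adjusted p = 0.0049). Of 18 other stem and progenitor surface genes, 4 were higher and 6 lower. Il7r, the receptor of interleukin-7, differed by 2.70, Fcgr2b by 1.36, Cd38 by -2.28, Neo1 by -1.08 and Esam by -0.91. The median of this list was -0.26 beside -0.01 for all genes tested. Of 8 lineage antibody targets 3 were tested, and Itgam and Ptprc were lower (-0.70 and -0.18, edgeR adjusted p of 0.00050 and 0.0093). Counts per gene do not separate the forms of a protein, so the Ptprc value is not read as that of a lineage marker. In the marrow against spleen and the tdTomato comparisons 0 genes of these 4 lists were called by edgeR.

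**Figure D5:**
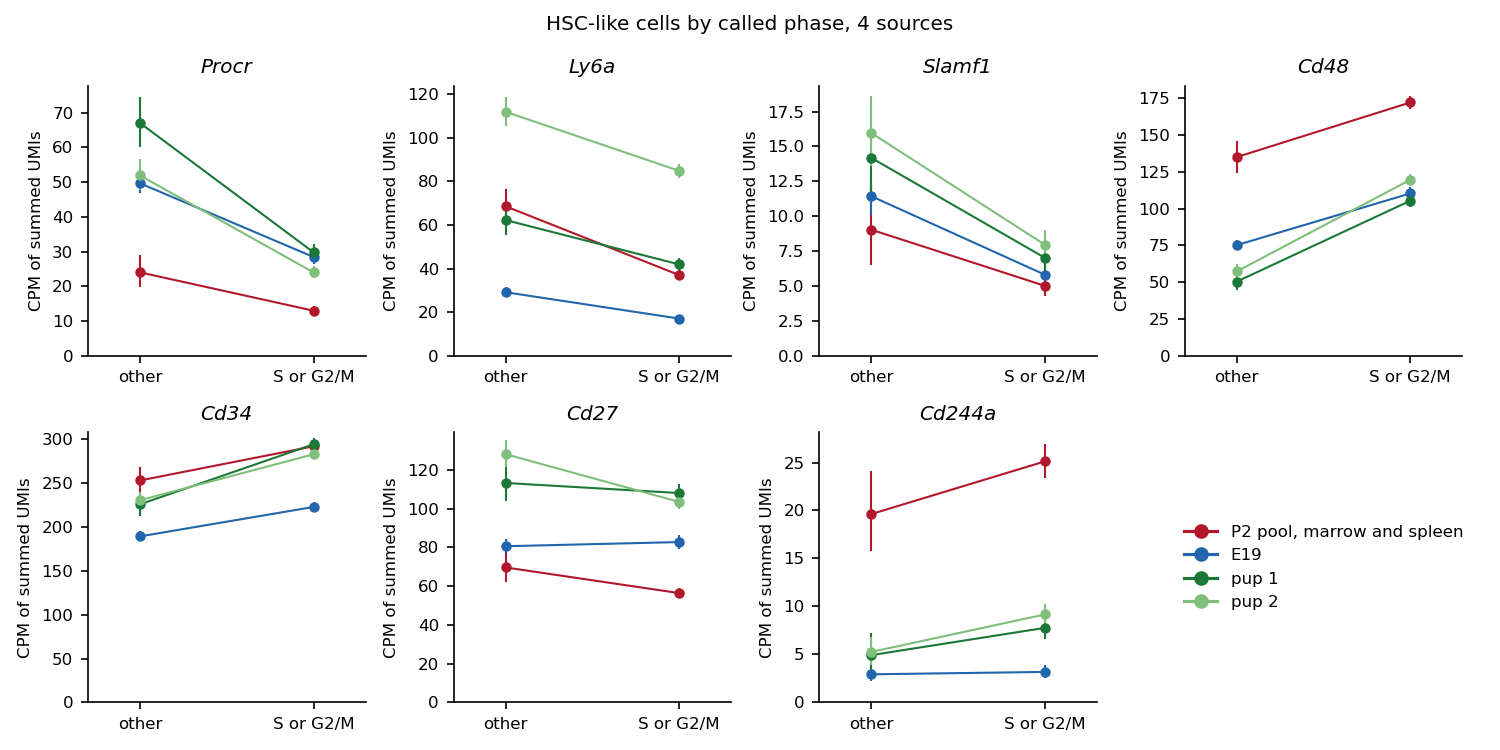
Level of each gene (vertical axes, CPM of summed UMIs) in HSC-like cells called other or S or G2/M (horizontal axes) in 4 sources (lines); bars are exact 95% Poisson intervals. Procr, Slamf1 and Ly6a are lower and Cd48, Cd34 and Cd244a higher in S or G2/M cells in each source. Cd27 is lower in the pool and pup 2, and its intervals overlap between the arms in E19 and pup 1.

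The E19 and pool values were also set side by side within each arm. In the other arm Procr stood at 49.6 CPM in E19 and 24.0 in the pool, and in the S or G2/M arm at 28.4 and 13; Cd48 stood at 75.2 and 135, and at 110 and 172. Procr was thus higher and Cd48 lower in E19 than in the pool in both arms. The pool sums here join bone marrow and spleen. E19 and the pool also differed in the summed HSC marker genes, at 3478 and 1618 CPM in the other arm. In the S or G2/M arm these sums were 2341 and 798 CPM. The 5 myeloid progenitor genes summed to 243 CPM in E19 and 427 CPM in the pool in the other arm. In the S or G2/M arm they summed to 263 and 1006 CPM. The part of phase in the values of Procr and Cd48 was not tested. The pups stood at 67.0 and 51.9 CPM of Procr in the other arm and at 29.8 and 24.0 CPM in the S or G2/M arm.

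The genes most alike in pattern were found over 34 sums of a library and class with at least 50 cells, among 9149 genes with a mean of at least 10 CPM, by Pearson's correlation of log2(CPM + 1). The sums share libraries, and the values are descriptions. For Procr they were Msrb3 (r = 0.88), Laptm4b (0.86) and Fam155a (0.86), for Ly6a Mrtfb (0.87), Setbp1 (0.86) and Rufy2 (0.86), and for Cd34 Sestd1 (0.91), Ptk7 (0.89) and Etv6 (0.89). For Cd48 they were Coro2a (0.92), Dock10 (0.91) and Vav1 (0.91), for Cd244a Selplg (0.90), Anxa6 (0.87) and Itgal (0.86), and for Cd27 Mfng (0.89), Rnf138 (0.87) and Pglyrp2 (0.84). Slamf1 had the weakest matches, Trim33 (0.71), Nrgn (0.71) and Cfap97 (0.69). Among the 7 genes, Procr was most alike to Cd34 (r = 0.71), Cd48 to Cd244a (0.69), and Slamf1 to none above 0.36.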

How the data were processed

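Cells were isolated from pooled P2 mice, E19 embryos and 2 labelled P2 pups and run on Chromium Single Cell 3′ v3, per the labels' protocols. The deposited matrices hold raw UMI counts per gene and cell; Cell Ranger 7.0.0 and build mm10 are named in the submitters' processing notes, and the matrices give 7.0.0 (P2 pool), 7.1.0 (E19) and 8.0.1 (tubes), per the file headers. No tdTomato transcript was used here, so the sort was taken from tube and hashtag.

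The members and lists were chosen with earlier results of these data known. Cells with at least 1000 genes, at least 2000 UMIs and at most 10% mitochondrial UMIs were kept (37147), and the highest Scrublet doublet scores were removed (0.8% of barcodes per 1000 barcodes). Clustering used scanpy 1.11.5 and leidenalg 0.10.2 (2000 variable genes without the 7 members, 30 components, 15 neighbours, resolution 1). Clusters were named where at least 3 markers and 50% of a list reached 2-fold over the median cluster and 10 CPM, with a marker in the top 10 genes; 2 clusters stayed unnamed, under a rule on markers of other lists added after seeing the data. Pup and tissue came from hashtag counts over the 99th percentile and 3 times the second tag, giving 1333 and 2045 tdTomato-negative cells and 34 and 40 positive cells for pups 1 and 2. This rule assigned 2079 of the 2657 kept cells of tube 1 and 1373 of the 2409 of tube 2. The alternative rule, with hashtag background subtracted, assigned 2628 and 2293. Counts summed per source were tested with edgeR 4.0.16 (TMM, filterByExpr, glmQLFTest; adjusted p under 0.05), with DESeq2 1.42.0 as an alternative. Leaving out 1 sum, other resolutions, normalizations, filters, hashtag rules and thinning depths were tried too. Same-numbered sources are the same animals. Deviations of marrow and spleen sums from the tissue means, with batch not removed, correlated at 0.77, 0.55 and 0.55. Those of the tdTomato sums from the means of their groups correlated at 0.096. The 7 members and genes of 4 lists are named where called, at most 5 per list, with the 3 most alike genes per member. 1 called gene of the lists is counted but not reported by name here. Tested on simulated data, the marrow against spleen design recovered 46 of 100 2-fold and 100 of 100 4-fold changes, the tdTomato design 15 and 93, and the phase design 65 and 100. The simulated sums were independent, with a dispersion of 0.05 and no source or batch effect. Changes were planted only in genes expected at over 10 UMIs in the smallest sum. Slamf1 and Cd244a had 4 and 1 UMIs in the positive cells of pup 1, so the tdTomato rates do not cover them. P-values measure the spread between these few pools and animals only.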

Additional observations from a re-analysis of the deposited data

Results flagged for a closer look

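Cd34 in HSC-like cells called S or G2/M was set apart in 1 of the 4 sources: E19, at 223 CPM, lay below the pool (292 CPM), pup 1 (294 CPM) and pup 2 (283 CPM). Cd244a in cells called other was set apart in the pool, at 19.6 CPM beside 2.93, 4.93 and 5.26 CPM in E19, pup 1 and pup 2. These passed a 95% critical value for the gap over the range, which chance passes in a small share of groups, and 14 groups were looked at. Cd27 in plain CPM was slightly higher in S or G2/M cells of E19 (log2 ratio 0.038), with intervals that overlapped between the arms. In those of the pool, pup 1 and pup 2 it was lower (-0.30, -0.07 and -0.31), with overlap in pup 1. The difference between E19 and the P2 sources was not tested.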

How the results depend on the processing

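Of the 7 members, 6 kept their direction and call in the phase comparison under each alternative with the source as a replicate block, including the omission of each source; without the block 987 genes and 1 member were called. Genes called there ranged from 5348 to 6705 when a source was left out. For marrow against spleen the count of 0 genes became 4 with DESeq2, 93 with no filter on low counts and 2 with the replicate block, and ranged from 0 to 10 with a source left out (10 without pup 1, 2 without pup 2); 0 members were called in each. For tdTomato the count of 53 became 0 with hashtag background subtracted, 204 with DESeq2, 483 with no filter and 377 with the pup as a replicate block, and 0 to 184 with 1 sum left out (129 without pup 1 negative, 2 without pup 1 positive, 184 without pup 2 negative, 0 without pup 2 positive), where a lone sum is assumed to vary like the others. Members called there numbered 1 with DESeq2, 2 with no filter (Cd48 and Cd244a), 1 with the block and 0 to 1 with a sum left out. The blocks changed no other call of a member. The causes were not tested.

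Signs of uncalled members turned as follows (log2). For marrow against spleen, Ly6a was -0.027 with DESeq2 and -0.029 with the replicate block, Cd27 was 0.015 with hashtag background subtracted, and with a source left out Procr ranged from -0.11 to 0.22, Ly6a from -0.038 to 0.016, Slamf1 from -0.31 to 0.39, Cd34 from -0.11 to 0.078 and Cd27 from -0.085 to 0.053. For tdTomato, Cd27 was -0.14 with hashtag background subtracted and -0.0023 with no filter, and with a sum left out Ly6a ranged from -0.32 to 0.93, Slamf1 from -0.045 to 0.66, Cd34 from -0.27 to 0.014 and Cd27 from -0.17 to 0.24. For phase, Cd27 was -0.0097 with RLE, -0.0061 without the cluster with Mpo at or above Mecom (added after seeing the data) and -0.050 to 0.074 with a source left out. DESeq2 moved the median of all genes to 0.20 for tdTomato.

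Slamf1 without Cd48 at 2500 UMIs was 2.18% in E19, 1.97% in tube 1, 2.03% in tube 2 and 1.76% in liver, lower than at 5000, and 1.85% in P2 bone marrow and 2.13% in spleen, higher than at 5000. Of 42 HSC-like shares, 39 left their interval at 2500 UMIs and 41 without thinning, as shares at another depth, while 0 did with the expected share or resolution 0.5, 6 with resolution 2, 5 with doublets kept and 2 without the Mpo cluster. Depth limits all of these shares, since a missing UMI is not a missing transcript.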
